A study of Homo sapiens with 12 samples.

Results

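Prostaglandin genes were followed across 4 A549 cell lines that differed in the aryl hydrocarbon receptor (AHR) they had been given. The 10 genes were chosen by name from the 60623 genes of the deposited count table: PLA2G4A, PTGS1, PTGS2, PTGES, PTGES2, PTGR1, HPGD, SLCO2A1, PTGER2 and PTGER4. They were proposed with results of these same comparisons already known, so their changes are a description of these libraries and not a test of the pathway. A549 is a human lung adenocarcinoma line. The V line was infected with a lentivirus carrying the empty vector pLV-EF1a-IRES-Hygro, the WT line with wild-type HA-AHR, the SA line with HA-AHR bearing S489A and the SD line with HA-AHR bearing S489D, and all 4 were selected with hygromycin. The SA protein cannot be phosphorylated at S489, and the SD protein carries an acidic residue that mimics phosphorylation there. Poly(A) RNA was sequenced from 3 libraries of each line, 12 in all. The sources name 1 line per construct, all lines keep their own AHR gene, and the EF1a promoter named in the vector is strong and constitutive in most cells. Differences between lines therefore cannot be told apart from differences between constructs, and p-values measure the spread between libraries of 1 line.

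Prostaglandins are made from arachidonic acid, which cytosolic phospholipase A2 (PLA2G4A) frees from membrane lipids. The cyclooxygenases PTGS1 and PTGS2 turn it into prostaglandin H2, and prostaglandin E synthases such as PTGES and PTGES2 turn that into prostaglandin E2. The transporter SLCO2A1 brings prostaglandins back into the cell, HPGD and PTGR1 inactivate them, and PTGER2 and PTGER4 are receptors for prostaglandin E2 that raise cyclic AMP. PTGS2 is the inducible cyclooxygenase, is known to be raised by inflammatory signals in many tissues, and is often raised in lung adenocarcinoma.

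The libraries held from 7844045 to 11765576 expected counts, so that 3 counts, the floor used here, corresponded to between 0.255 and 0.382 CPM, a gene's count relative to the normalized library total. AHR together with ENSG00000283321, a gene without a symbol that overlaps AHR in the annotation, came to 69.1 ± 4.51 CPM in V, 469 ± 16.4 CPM in WT, 393 ± 18.9 CPM in SA and 296 ± 8.16 CPM in SD (mean ± SD, n = 3). The transgene was thus seen in every AHR line, and its level was not the same in the 3. Of the A549 markers, KRT8 was at 2359 to 3330 CPM in the 12 libraries, while EPCAM was at only 0.381 to 1.75 CPM. The alveolar type II markers SFTPC, SFTPB, SFTPA1 and NKX2-1 summed to at most 0.508 CPM. Among markers of other cell types, PPBP, PF4, GP9, CD3E, DCN and VWF were at 0 in every library, and CD14 reached 22.4 CPM, COL1A1 13.1 CPM and ITGA2B 8.11 CPM.

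Of the 10 members, 7 had enough counts to be tested in all 6 comparisons between lines. Of those 7, 4 changed against V in at least 1 AHR line: PLA2G4A and PTGS2 downward, PTGES and PTGR1 upward. Among all genes tested, 5.24% changed in WT against V, 7.17% in SA against V and 5.41% in SD against V. The share of all genes that changed in at least 1 AHR line was not counted, so the 4 of 7 has no matching background. The promoters of these 4 members are printed here because they are the members that changed against V. Each is the RefSeq window of GRCh38.p14 from 250 bases before to 50 bases after the annotated start, 5′ to 3′ on the gene's strand. Capitals mark a match to any of 5 short motifs searched on both strands: the AHR response core GCGTG, the cyclic AMP response element TGACGTCA, the antioxidant response core TGACNNNGC, the TATA box TATAAA and the AP-1 site TGANTCA. Windows without capitals held none of the 5.
PLA2G4A, chr1:186828699-186828998, plus strand: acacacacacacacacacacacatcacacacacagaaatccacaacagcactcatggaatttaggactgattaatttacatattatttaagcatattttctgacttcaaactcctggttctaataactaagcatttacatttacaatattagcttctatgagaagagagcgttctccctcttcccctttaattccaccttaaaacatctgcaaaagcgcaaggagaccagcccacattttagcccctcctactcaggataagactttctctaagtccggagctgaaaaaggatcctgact
PTGS2, chr1:186680374-186680673, minus strand: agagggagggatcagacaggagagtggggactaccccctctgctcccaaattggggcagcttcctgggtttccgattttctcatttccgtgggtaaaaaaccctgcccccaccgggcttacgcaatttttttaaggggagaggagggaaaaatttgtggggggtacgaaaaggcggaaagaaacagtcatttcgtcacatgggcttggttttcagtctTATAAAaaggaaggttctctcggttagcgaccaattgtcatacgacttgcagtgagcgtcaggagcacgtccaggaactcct
PTGES, chr9:129752993-129753292, minus strand: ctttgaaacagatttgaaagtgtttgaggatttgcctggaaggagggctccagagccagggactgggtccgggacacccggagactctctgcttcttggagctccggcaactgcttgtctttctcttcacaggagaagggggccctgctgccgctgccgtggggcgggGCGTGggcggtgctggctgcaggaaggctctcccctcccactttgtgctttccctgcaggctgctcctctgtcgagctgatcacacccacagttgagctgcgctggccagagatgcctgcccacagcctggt
PTGR1, chr9:111599382-111599681, minus strand: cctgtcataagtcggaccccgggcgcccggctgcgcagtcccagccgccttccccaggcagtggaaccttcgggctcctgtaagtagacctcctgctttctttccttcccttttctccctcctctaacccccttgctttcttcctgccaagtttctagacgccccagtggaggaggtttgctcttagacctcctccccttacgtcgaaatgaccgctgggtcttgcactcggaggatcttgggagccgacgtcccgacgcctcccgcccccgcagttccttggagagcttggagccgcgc

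The PTGS2 window held a TATA box starting at position -32 from the start of transcription, and TATAAA was present in 11.5% of the 35116 windows in the table. The PTGES window held 1 AHR response core, at position -82, a word found in 36.5% of all windows. That core was also in windows of HPGD, PTGER4, PTGES2 and the untested PTGER2, members that passed in no comparison. It was not in the windows of PLA2G4A, PTGS2 or PTGR1. The other motifs were rarer or not in the 4 printed windows: the cyclic AMP element was in 1.85% of all windows, the antioxidant core in 13.3% and the AP-1 site in 7.71%. The AHR response core and the antioxidant core can share 2 letters where their ends meet, and the cyclic AMP element shares its first 4 letters with the antioxidant core. The GC content was 39.7% in the PLA2G4A window and 50.7% in the PTGS2 window, both under the median of 58.7% over all windows, and was 61.7% for PTGES and 62.0% for PTGR1. These matches describe letters and not binding.

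Against V, 4 of the 7 tested members passed an adjusted p of 0.05 in WT (2 higher, 2 lower), 4 in SA (2 higher, 2 lower) and 3 in SD (2 higher, 1 lower). Over all genes tested, 5.24% passed in WT against V, 7.17% in SA against V and 5.41% in SD against V. The 3 comparisons share the V libraries. Between AHR lines PTGS2 was the 1 member that passed, both in SD against WT, where 0.708% of all genes passed, and in SD against SA, where 0.22% passed. No member passed in WT against SA by edgeR or by DESeq2, 1 had an unadjusted p under 0.05 in edgeR, and 0.0803% of all genes passed. All adjusted p-values are from edgeR's quasi-likelihood test with Benjamini-Hochberg adjustment over every gene tested in that pair of lines.

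Read per kilobase of annotated exon, so that genes can be compared, PTGES had the highest level among the members in V, at 81.9 CPM per kb. PTGR1 followed at 52.4 CPM per kb, PLA2G4A at 33.8, PTGS2 at 29.1, PTGES2 at 15.3, HPGD at 9.92 and PTGER4 at 1.21. PTGER2 at 0.185 CPM per kb and PTGS1 at 0.0841 were the lowest detected. The length counts the exons of all annotated transcripts of a gene, so the level of a gene with long, rarely used exons is understated.

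**Figure D1:**
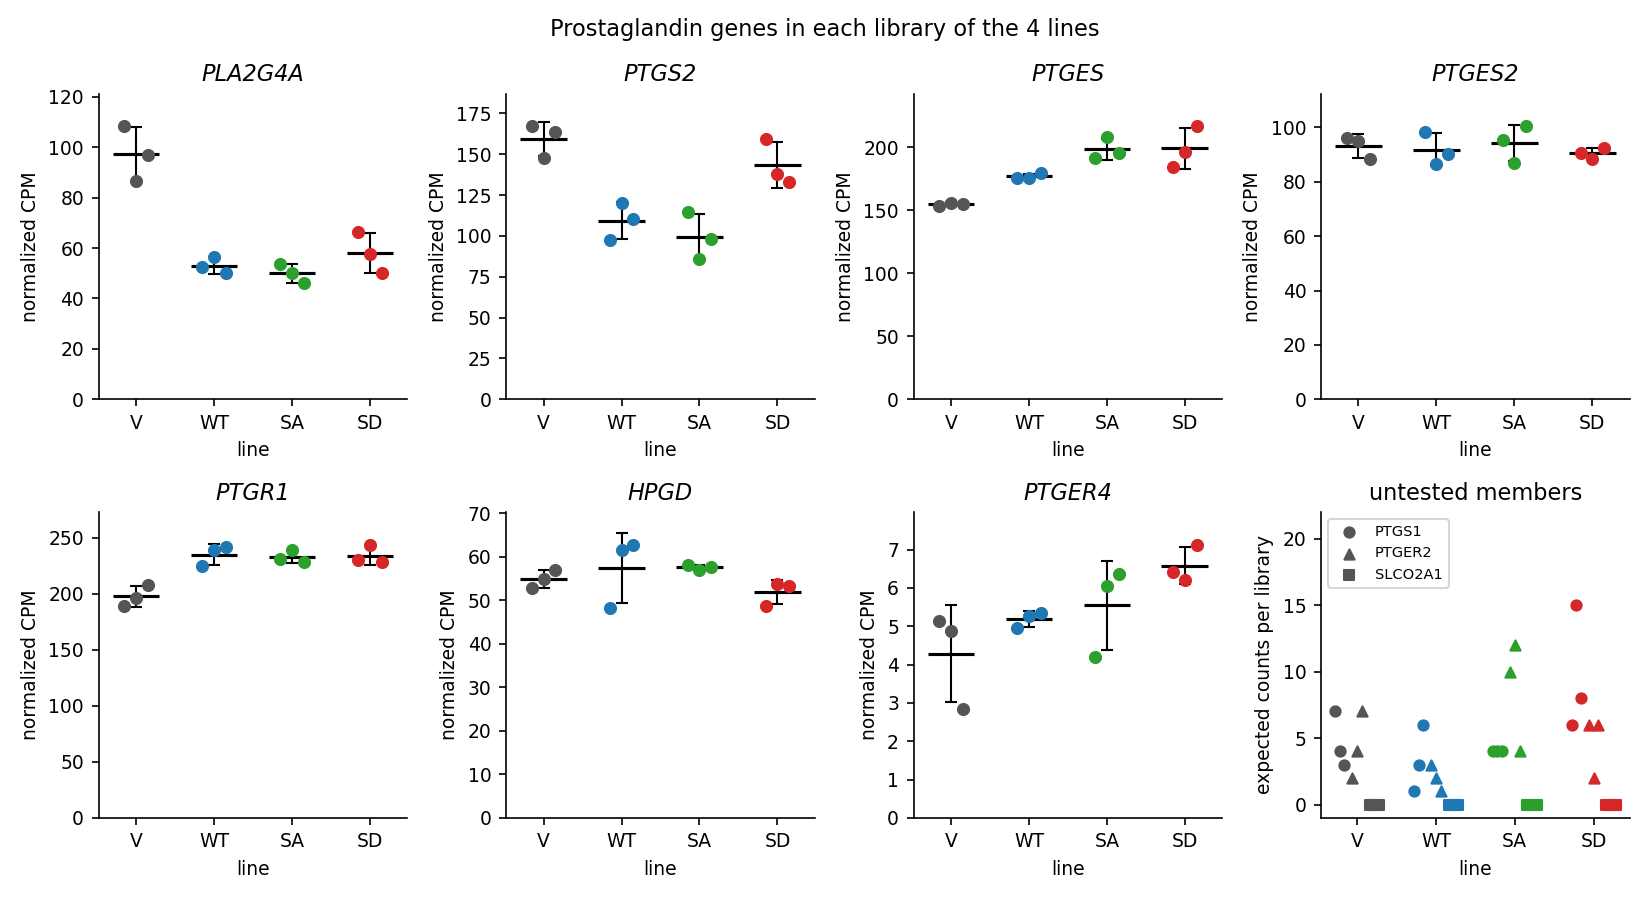
Normalized CPM of the 7 tested members in each library (points) by line (x axis), with the mean (bar) and SD (whiskers), n = 3; the last panel gives expected counts per library for PTGS1, PTGER2 and SLCO2A1. PLA2G4A was higher in every V library than in any AHR library, while PTGS2 was low in WT and SA and lay near V in SD.

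PLA2G4A, the enzyme that supplies arachidonic acid, showed the largest change of any member past the threshold and was lower in all 3 AHR lines. It was at 108, 86.5 and 97.0 CPM in the 3 V libraries. It was at 52.4, 56.6 and 50.2 CPM in WT, at 53.6, 50.2 and 46.0 CPM in SA, and at 66.2, 57.5 and 50.2 CPM in SD. No AHR library reached the lowest V library, and the 3 AHR lines overlapped one another. Against V, PLA2G4A fell by 45.4% in WT (log2 fold change -0.87, SE 0.08, adjusted p = 3.99e-09). In SA it fell by 48.7% (-0.96, SE 0.08, adjusted p = 1.63e-09), and in SD it fell by 40.5% (-0.75, SE 0.09, adjusted p = 1.85e-06). In bulk RNA, less RNA per cell and fewer cells carrying the transcript cannot be told apart, here or for any gene that follows.

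Among the AHR lines the order of PLA2G4A means was SD at 57.9 ± 8.02 CPM, WT at 53.1 ± 3.25 CPM and SA at 49.9 ± 3.80 CPM. None of these neighbours differed past the threshold. The log2 difference was 0.12 (SE 0.09, adjusted p = 0.681) for SD against WT, 0.21 (SE 0.09, adjusted p = 0.532) for SD against SA and 0.09 (SE 0.08, adjusted p = 0.825) for WT against SA. The PLA2G4A fall against V passed in every alternative tried, with adjusted p-values of at most 7.85e-05 in SD, 2.56e-05 in WT and 1.21e-07 in SA.

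PTGS2, the inducible cyclooxygenase, was lower in WT and SA than in V and was higher in SD than in either of them. It was at 167, 147 and 164 CPM in V and at 97.6, 120 and 110 CPM in WT. It was at 114, 86.1 and 98.0 CPM in SA and at 159, 138 and 133 CPM in SD. Every SD library was above every WT and SA library, and the SD and V libraries overlapped. Against V, PTGS2 fell by 31.2% in WT (log2 fold change -0.54, SE 0.06, adjusted p = 9.35e-07), and it fell by 37.8% in SA (-0.69, SE 0.07, adjusted p = 3.10e-07). In SD the log2 difference from V was -0.15 (SE 0.07, adjusted p = 0.220), which did not pass. Without SD replicate 1, the highest of that line, it was -0.24 with an adjusted p of 0.0208, so whether SD lay below V turned on that library.

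The direct comparisons gave PTGS2 a log2 fold change of 0.38 in SD against WT (SE 0.07, a rise of 30.5%, adjusted p = 0.0103). In SD against SA it was 0.53 (SE 0.09, a rise of 44.3%, adjusted p = 0.00630), and in WT against SA it was 0.14 (SE 0.08, adjusted p = 0.739). The order of means was thus V at 159 ± 10.5 CPM, SD at 143 ± 14.0, WT at 109 ± 11.4 and SA at 99.5 ± 14.2, and only the step from SD to WT passed between neighbours. That call rests on few libraries: without WT replicate 1 the adjusted p was 0.121 (log2 fold change 0.31), and without SD replicate 1 it was 0.0537 (0.30). In SD against SA, leaving out SA replicate 2 gave 0.43 with an adjusted p of 0.0851. The summed AHR level was also lower in SD than in WT or SA, at 296 against 469 and 393 CPM, but the sum itself was not tested. For AHR counted alone, SD was lower than WT (log2 fold change -0.35, SE 0.06, adjusted p = 0.00774). SD and SA libraries overlapped for AHR alone, and that difference did not pass (-0.09, SE 0.06, adjusted p = 0.704). The overlapping gene ENSG00000283321 averaged 85.5 CPM for SD, against 170 for SA and 203 for WT. The part of the AHR level in the PTGS2 difference was not tested.

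PTGS2 lies on chromosome 1 at 186671791 to 186680423 on the minus strand (GRCh38), and PLA2G4A at 186828949 to 186988981 on the plus strand. The 2 genes point away from each other, with 148525 bases between them. One gene of GENCODE release 44, the long noncoding RNA PACERR, lies within that gap. That release gives PTGS2 coordinates other than the deposited ones printed here, and in it PTGS2 and PACERR share 219 exon bases on opposite strands. Whether the gene models behind the counts overlap in this way was not checked. The sources used here also do not say whether the libraries kept strand, so how reads of such a stretch were assigned is uncertain. PACERR, which was looked at after its values were seen, held from 5 to 21 counts a library, against 768 to 1625 for PTGS2. Its mean was 1.95 CPM in V, 1.08 in SD, 1.05 in SA and 0.785 in WT, and every AHR library was below every V library. At these low counts none of its log2 differences from V passed (-1.36 with an adjusted p of 0.0885 for WT, -0.88 with 0.227 for SA, -0.87 with 0.295 for SD).

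PTGS1, the constitutive cyclooxygenase, was barely detected. Its counts were 7, 4 and 3 in V, 1, 3 and 6 in WT, 4, 4 and 4 in SA and 6, 15 and 8 in SD. The gene was under the filter on low counts in every comparison, and differences between lines were not detectable at this depth. PTGS2 thus supplied nearly all cyclooxygenase reads in these cells, with at least 768 counts in each library.

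PTGES, the inducible prostaglandin E synthase, was higher in all 3 AHR lines. It was at 154, 156 and 155 CPM in V and at 175, 176 and 179 CPM in WT. It was at 192, 208 and 195 CPM in SA and at 184, 197 and 217 CPM in SD. No AHR library overlapped V, and every SA and SD library was above every WT library. The rise over V was 14.1% in WT (log2 fold change 0.19, SE 0.05, adjusted p = 0.0149), 27.9% in SA (0.35, SE 0.05, adjusted p = 3.70e-05) and 28.7% in SD (0.36, SE 0.06, adjusted p = 2.40e-04). Although the WT libraries did not overlap those of the other AHR lines, the log2 difference was 0.17 in SD against WT (SE 0.06, adjusted p = 0.249) and -0.17 in WT against SA (SE 0.05, adjusted p = 0.438), neither past the threshold. In SD against SA it was 0.01 (SE 0.06, adjusted p = 0.992). The WT call was lost in 4 of 11 alternatives, among them without V replicate 1 (0.18, adjusted p = 0.0861), without WT replicate 3 (0.18, adjusted p = 0.0802) and when all 12 libraries were fitted together (0.19, adjusted p = 0.0574).

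PTGES2, a second enzyme named as a prostaglandin E synthase, stayed within a narrow range. Its means were 94.2 ± 6.71 CPM in SA, 93.2 ± 4.34 in V, 91.8 ± 5.98 in WT and 90.4 ± 1.96 in SD. All 4 lines overlapped. Its 6 log2 differences ran from -0.06 to 0.01 with SEs of 0.06 to 0.07, and no adjusted p was under 0.810.

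PTGR1, which reduces prostaglandin and leukotriene products to inactive forms, rose to about the same level in the 3 AHR lines. It was at 189, 196 and 207 CPM in V and at 225, 239 and 242 CPM in WT. It was at 231, 239 and 228 CPM in SA and at 230, 244 and 228 CPM in SD. Every AHR library was above every V library. The rise over V was 18.9% in WT (log2 fold change 0.25, SE 0.05, adjusted p = 0.00148), 17.9% in SA (0.24, SE 0.05, adjusted p = 0.00354) and 18.6% in SD (0.25, SE 0.06, adjusted p = 0.00712). Between AHR lines the log2 differences were -0.01 to 0.01. Without V replicate 1 the adjusted p was 0.0525 in SA (0.21) and 0.0905 in SD (0.21), and without SD replicate 2 it was 0.0776 in SD (0.22). PTGR1 shares 78 exon bases with ZNF483 on the opposite strand.

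HPGD, the dehydrogenase that begins the breakdown of prostaglandin E2, did not pass in any comparison. It was at 52.9, 54.9 and 56.9 CPM in V, at 48.3, 61.5 and 62.8 in WT, at 58.2, 57.0 and 57.6 in SA and at 48.6, 53.7 and 53.4 in SD. The SD libraries were all below the SA libraries, with a log2 difference of -0.15 (SE 0.07, adjusted p = 0.589). HPGD shares 314 exon bases with the long noncoding RNA ENSG00000251584 on the opposite strand. SLCO2A1, the prostaglandin uptake transporter, had 0 counts in all 12 libraries, which allows up to 0.255 to 0.382 CPM depending on the library, for counting error only.

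The receptor PTGER4 was the more abundant of the 2 prostaglandin E2 receptors on the list. It was at 5.14, 4.88 and 2.84 CPM in V and at 4.96, 5.27 and 5.34 CPM in WT. It was at 4.21, 6.06 and 6.36 CPM in SA and at 6.41, 6.22 and 7.13 CPM in SD. All SD libraries were above all V and WT libraries. The log2 difference of SD from V was 0.62 (SE 0.23, adjusted p = 0.134), in WT 0.27 (SE 0.25, adjusted p = 0.644) and in SA 0.37 (SE 0.25, adjusted p = 0.447), so none passed. PTGER4 had only 27 to 80 counts a library, and its SEs were larger than those of PTGS2. PTGER2 had 2, 4 and 7 counts in V, 3, 2 and 1 in WT, 10, 12 and 4 in SA and 6, 2 and 6 in SD, under the filter in every comparison.

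**Figure D2:**
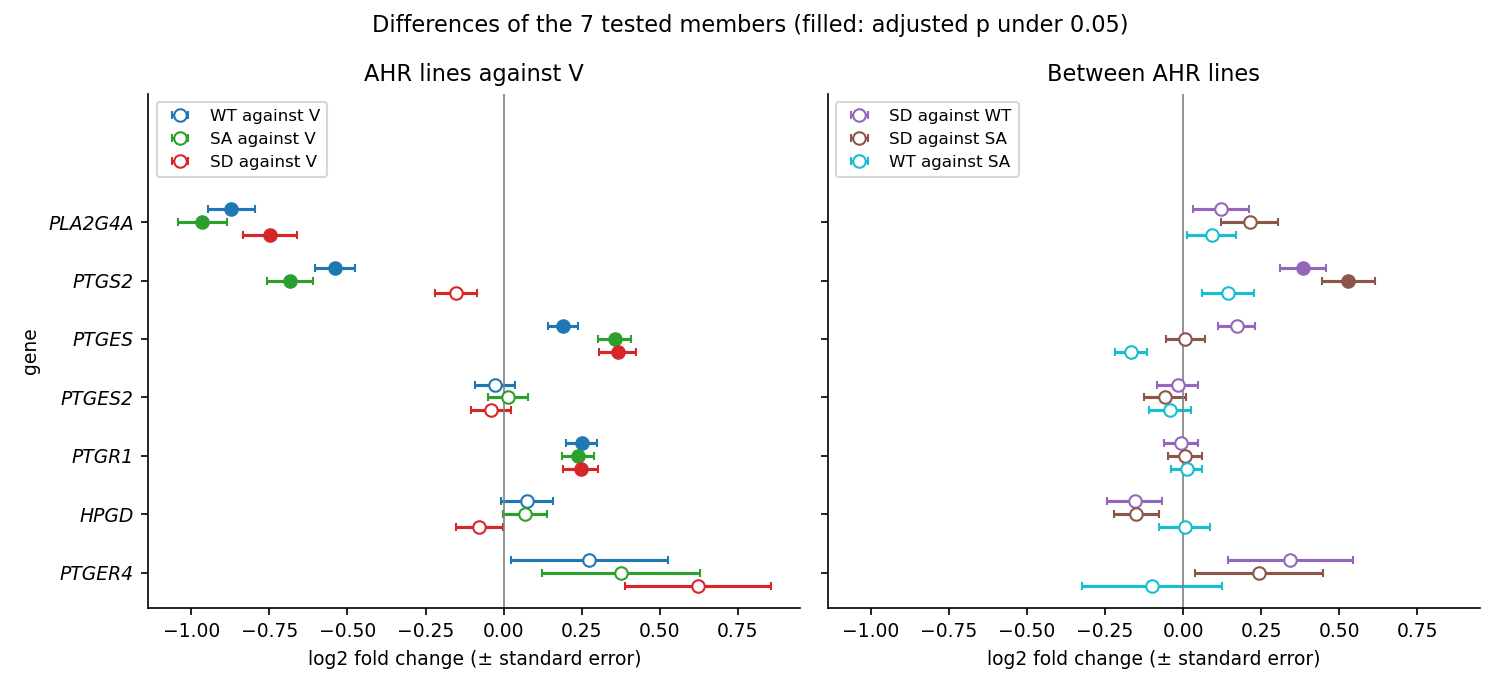
Log2 fold changes (x axis) with standard errors for the 7 tested members, against V on the left and between AHR lines on the right, with filled points past an adjusted p of 0.05. PLA2G4A was below 0 in all 3 comparisons against V, and PTGS2 was the only member with filled points between AHR lines.

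Another 61 genes of 6 lists covered the rest of the pathway: arachidonate supply (15 genes), prostanoid synthases (8), prostanoid breakdown and export (7), other prostanoid receptors (7), the lipoxygenase branch (12) and cyclic AMP-responsive genes (12). Of the 61, 38 were tested in WT against V, of which 1 was higher and 5 lower past the threshold. In SA against V 37 were tested, 2 higher and 5 lower, and in SD against V 38 were tested, 4 higher and 4 lower. Over all genes tested, 5.24% passed in WT, 7.17% in SA and 5.41% in SD against V. Of those, 341 were higher and 433 lower in WT, 579 and 490 in SA, and 435 and 371 in SD. The median log2 difference over the lists was -0.0010 for WT, -0.016 for SA and -0.0046 for SD, beside 0.0018, -0.0024 and 0.0030 over all genes tested. In SD against WT 1 of 39 passed, beside 0.708% of all genes tested. Neither SD against SA nor WT against SA had a gene past the threshold by edgeR or DESeq2, with 5 and 2 genes at an unadjusted p under 0.05 in edgeR. Over all genes tested, 0.22% and 0.0803% passed in those 2 comparisons by edgeR.

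In the arachidonate supply list, ANXA1 was lower in all 3 AHR lines. ANXA1 encodes annexin A1, long described as an inhibitor of phospholipase A2. It was at 1412 ± 35.1 CPM in V, and at 1147 ± 28.1, 1134 ± 42.8 and 1149 ± 36.1 CPM in WT, SA and SD. The log2 fold changes were -0.30 (SE 0.04, adjusted p = 2.86e-06), -0.32 (SE 0.04, adjusted p = 2.06e-05) and -0.30 (SE 0.05, adjusted p = 4.16e-04). MBOAT7, which returns arachidonic acid to phosphatidylinositol, was higher in SA (0.21, SE 0.05, adjusted p = 0.0113) and SD (0.22, SE 0.06, adjusted p = 0.0140). In WT every library was also above every V library, but the difference did not pass (0.13, SE 0.05, adjusted p = 0.115). Both MBOAT7 calls were lost without V replicate 1, with adjusted p-values of 0.0609 and 0.0805, and the SD call also without V replicate 2 (0.0577) or V replicate 3 (0.0678). The median log2 difference of the 10 tested genes was 0.02 for WT, 0.08 for SA and 0.01 for SD.

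Among prostanoid synthases, PRXL2B, named for prostaglandin F synthase activity, was higher in SD at 26.5 ± 2.02 CPM against 20.4 ± 1.75 in V (log2 fold change 0.38, SE 0.11, adjusted p = 0.0357). Its mean was also above V in WT, at 26.0 ± 1.07 CPM (0.34, SE 0.10, adjusted p = 0.0513), and in SA, at 25.6 ± 2.32 CPM (0.32, SE 0.11, adjusted p = 0.0676), with every library of both lines above every V library although neither passed. The SD call was lost in 6 of 11 alternatives, among them the libraries V replicate 1, 2 or 3 and SD replicate 2 or 3 left out in turn, with adjusted p-values up to 0.203. The medians of the 5 tested synthases were 0.08 in WT, 0.18 in SA and 0.10 in SD. HPGDS was at 0 counts throughout and PTGIS at 0 to 2.

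In the breakdown and export list, all 7 genes were tested. The calls were all downward: 1 in WT, 3 in SA and 2 in SD, with list medians of -0.03, -0.13 and 0.01. Over all genes tested, 5.24%, 7.17% and 5.41% passed in these comparisons, in both directions. The list leaves out the members PTGR1, which was higher in every AHR line, and HPGD, which did not pass. Breakdown genes as a whole therefore did not move in a single direction. AKR1C2, an aldo-keto reductase, was at 755 ± 43.4 CPM in V, and at 596 ± 31.4, 622 ± 9.20 and 578 ± 10.4 CPM in WT, SA and SD. Its log2 fold changes were -0.34 (SE 0.05, adjusted p = 8.21e-06), -0.28 (SE 0.05, adjusted p = 2.50e-04) and -0.38 (SE 0.05, adjusted p = 2.49e-05), but it shares long stretches with AKR1C1 and AKR1C3, so how reads were divided among them is uncertain. ABCC4, a pump that exports prostaglandin E2, was at 103 ± 7.26 CPM in V, 80.0 ± 4.59 in SA and 87.0 ± 6.10 in SD. It fell by 22.6% in SA (log2 fold change -0.37, SE 0.07, adjusted p = 4.96e-04), and it fell by 15.8% in SD (-0.25, SE 0.07, adjusted p = 0.0318). In WT it was at 91.8 ± 7.62 CPM, which overlapped V and did not pass (-0.17, SE 0.07, adjusted p = 0.148). The SD call of ABCC4 was lost without V replicate 1 (adjusted p = 0.214), V replicate 2 (0.0964), SD replicate 2 (0.0756) or SD replicate 3 (0.154), and in DESeq2 (0.0502). PTGFRN, a partner of the prostaglandin F receptor, fell in SA (-0.25, SE 0.08, adjusted p = 0.0406), a call lost in 7 of 11 alternatives, among them without V replicate 1 or 2 or any 1 SA library, with adjusted p-values up to 0.148. In WT every library was below every V library (-0.21, SE 0.07, adjusted p = 0.101). In SD the libraries overlapped V (-0.14, SE 0.08, adjusted p = 0.360), and neither line passed.

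The other prostanoid receptors were nearly silent. PTGER3 and PTGDR had 0 counts in all libraries, PTGER1, PTGFR, PTGIR and PTGDR2 had at most 5, and TBXA2R, the thromboxane receptor, had 3 to 17. TBXA2R was the only one tested, in WT and in SD against V, with log2 differences of 0.50 (SE 0.54, adjusted p = 0.707) and 0.66 (SE 0.55, adjusted p = 0.602). In the lipoxygenase branch 3 of 12 genes were tested against V, LTA4H, LTB4R and LTB4R2, and none passed, with list medians of -0.09, -0.11 and 0.01. ALOX5, the first enzyme of leukotriene synthesis, had at most 4 counts.

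The cyclic AMP-responsive list holds genes that receptors such as PTGER2 and PTGER4 can raise, along with many other signals. Its 12 genes were all tested, with 1 higher and 3 lower in WT, 1 and 1 in SA, and 2 and 1 in SD, and medians of -0.11, -0.03 and -0.10. Over all genes tested, 5.24% passed in WT, 7.17% in SA and 5.41% in SD against V. VEGFA, which encodes a growth factor for blood vessels, was higher in every AHR line. It was at 60.8, 64.5 and 67.2 CPM in V and at 83.7, 73.5 and 77.7 CPM in WT. It was at 87.8, 82.8 and 85.5 CPM in SA and at 100.7, 89.1 and 97.4 CPM in SD. No AHR library overlapped V, and the SD libraries were above all others. The log2 fold changes over V were 0.28 in WT (SE 0.07, adjusted p = 0.0116), 0.41 in SA (SE 0.07, adjusted p = 1.32e-04) and 0.58 in SD (SE 0.07, adjusted p = 2.57e-06). SD exceeded WT by 0.29 (SE 0.07, adjusted p = 0.0452), a call that was lost without any 1 of the 6 libraries, with adjusted p-values of 0.0559 to 0.210. The WT call over V was lost without V replicate 1 (adjusted p = 0.105) or WT replicate 1 (0.0813).

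The immediate-early gene NR4A1, a nuclear receptor, moved the other way in the same list. It was at 53.2 ± 4.84 CPM in V, and at 39.2 ± 0.716, 38.1 ± 4.52 and 42.3 ± 3.89 CPM in WT, SA and SD, with log2 fold changes of -0.44 (SE 0.08, adjusted p = 6.81e-04), -0.48 (SE 0.09, adjusted p = 5.95e-04) and -0.33 (SE 0.09, adjusted p = 0.0213). The SD call of NR4A1 was lost in 5 of 11 alternatives, among them without V replicate 2 (adjusted p = 0.141), V replicate 3 (0.0813), SD replicate 2 (0.115) or SD replicate 3 (0.0890). Its relative NR4A3 was lower in WT, at 2.49 ± 0.105 against 5.06 ± 0.294 CPM (-1.02, SE 0.27, adjusted p = 0.0202), but lost its call in 6 of 11 alternatives, among them without V replicate 1 or 2 or any 1 WT library (adjusted p up to 0.0800). Every SA and SD library was also below every V library for NR4A3. Neither line passed, at -0.81 in SA (SE 0.26, adjusted p = 0.0569) and -0.72 in SD (SE 0.26, adjusted p = 0.108). SIK1, a kinase, was lower in WT (-0.56, SE 0.17, adjusted p = 0.0482), but the call was lost in 9 of 11 alternatives, among them without any 1 of the 6 libraries (adjusted p up to 0.213). SIK1 has a near-identical copy, SIK1B, that can take its reads. FOS, an AP-1 subunit, was higher in SD at 7.18 ± 0.892 against 3.77 ± 0.0758 CPM in V (0.93, SE 0.22, adjusted p = 0.00864), with an adjusted p of 0.0567 without SD replicate 3. Its log2 difference from V was 0.49 in WT (SE 0.24, adjusted p = 0.282), with every WT library above every V library. In SA it was 0.54 (SE 0.26, adjusted p = 0.257), with overlap, and neither line passed.

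**Figure D3:**
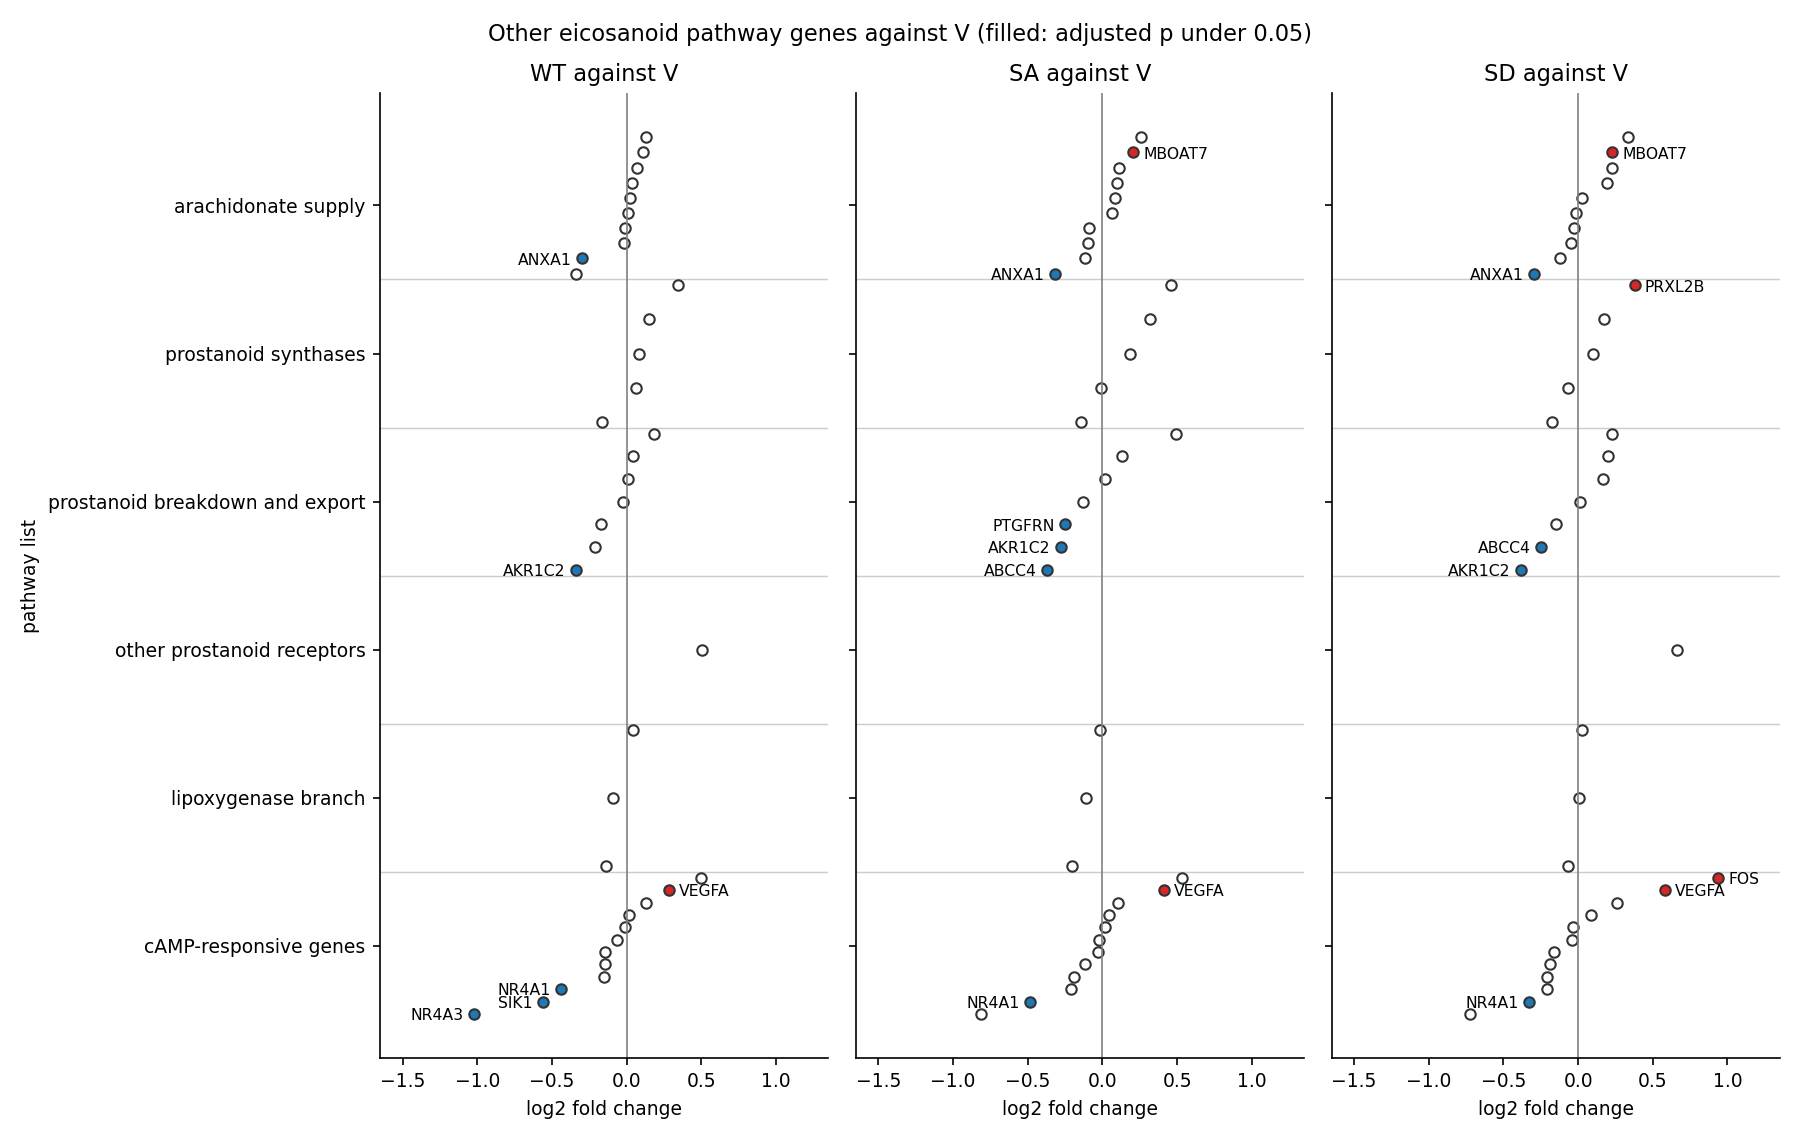
Log2 fold changes against V (x axis) of each tested gene of the 6 other pathway lists (rows), 1 panel per AHR line, with genes past an adjusted p of 0.05 filled and named. ANXA1, AKR1C2 and NR4A1 were lower and VEGFA was higher in all 3 panels.

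The likeness of patterns was measured as Pearson's r of log2 CPM over the 12 libraries, among 11787 genes with a mean of at least 5 CPM. The libraries share lines and culture, so the values are descriptive. The genes most like PTGS2 were SEL1L (r = 0.934), PDIA6 (r = 0.926) and PCID2 (r = 0.923). SEL1L acts in the disposal of misfolded proteins from the endoplasmic reticulum and PDIA6 in their folding. SEL1L was at 171 CPM in V, 168 in SD, 154 in WT and 149 in SA, the same order of lines as PTGS2 over a smaller range. PLA2G4A followed PTGS2 with r = 0.811, whereas PTGES had r = -0.562 and PTGR1 had r = -0.599.

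The genes most like PLA2G4A were SAT1 (r = 0.986), an enzyme of polyamine breakdown, DKK1 (r = 0.974), a secreted Wnt inhibitor, and HEATR5A (r = 0.972). SAT1 was at 244 CPM in V and 160 to 172 CPM in the AHR lines. DKK1 was at 308 CPM in V and at 208, 188 and 184 CPM in SD, WT and SA. HEATR5A was at 67.2 CPM in V and at 47.2 to 49.8 CPM in the AHR lines. A higher mean in V follows from ranking genes by likeness to PLA2G4A, so it is not a separate result. PTGES and PTGR1 were the reverse of PLA2G4A, with r = -0.842 and r = -0.869. These values include the opposite changes against V already given, and likeness within lines was not measured.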

How the data were processed

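RNA-seq was done on poly(A) RNA from 12 libraries, 3 each of V, WT, SA and SD. Per the labels, reads were trimmed with Trimmomatic 0.39 and quantified with RSEM on GRCh38; the strand setting is not given in the sources used here. The authors deposited RSEM expected counts per gene, of which 3.24 to 3.61% per library were not whole; these were rounded. A second deposited table holds the authors' own comparisons and was not used. Depth was 7844045 to 11765576 counts, and the spread between libraries sets the precision.

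Each pair of lines was tested on its own 6 libraries with edgeR 4.0.16 (R 4.3.3): filterByExpr with a minimum count of 10 and a total of 15, TMM normalization, the quasi-likelihood F-test, two-sided, and Benjamini-Hochberg adjustment, with a threshold of 0.05. Standard errors are the log2 fold change over the square root of F. CPM used TMM factors over 12 libraries, and lengths were merged GENCODE release 44 exons, whose gene coordinates matched the deposited ones for 88.7% of genes. Promoters came from RefSeq for 9 of the 10 members, several with more than 1 start. The fits were tested on simulated data. No 2 libraries of the same line were duplicates, and libraries of different lines were not checked for this. Alternatives were DESeq2 1.42.0, its size factors, genes with at least 1 count, all 12 libraries in 1 fit, a replicate block and leaving out each library.

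The members and lists were chosen with earlier results of these data known. The text names every member, list genes past the threshold in any comparison (at most 5 a list), the 3 genes most like PTGS2 and the member with the largest change, and AHR with its overlapping gene.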

Additional observations from a re-analysis of the deposited data

Results flagged for a closer look

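PTGS2 differed between AHR lines by a test of the difference itself: its log2 fold change came to 0.38 in SD against WT (SE 0.07, edgeR adjusted p = 0.0103) and 0.53 in SD against SA (SE 0.09, edgeR adjusted p = 0.00630). In both, all 3 SD libraries were higher than all 3 of the other line. VEGFA differed likewise in SD against WT, by 0.29 (SE 0.07, edgeR adjusted p = 0.0452), with all 3 SD libraries higher. The VEGFA call was lost in 6 of 11 alternatives. The PTGS2 call was lost in 2 alternatives in SD against WT and in 1 in SD against SA. With 3 libraries per line, no single library was tested as an outlier.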

How the results depend on the processing

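No change of PLA2G4A against V, and none of PTGS2 in WT or SA against V, lost its call under any alternative. The members past the threshold stayed at the same number under every alternative that kept all libraries, except in WT against V, where 3 passed with all 12 libraries in 1 fit and with the replicate block. Leaving out 1 library gave 3 to 4 members in WT against V, 3 to 4 in SA against V, 2 to 4 in SD against V, and 0 to 1 in SD against either WT or SA. Counts of all genes were 434 to 720, 621 to 1195 and 502 to 856 against V in WT, SA and SD, 45 to 145 in SD against WT, 11 to 56 in SD against SA and 2 to 25 in WT against SA. Other pathway genes numbered 3 to 5, 5 to 7 and 5 to 8 against V, and 0 to 1 in SD against WT.

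With every gene of at least 1 count, 103 genes passed in WT against SA, 252 in SD against WT and 153 when SD was set against SA, and 2 pathway genes in SD against WT; all 12 libraries in 1 fit gave 5 genes in WT against SA. The replicate block gave 507 genes in WT against V, 25 in WT against SA, 245 in SD against WT and 165 when SD was set against SA, and 3 pathway genes in SD against WT. The labels do not say whether same-numbered libraries were made together. Deviations of same-numbered libraries correlated at -0.110 to 0.192. Differently numbered libraries were not compared, so this range cannot settle whether the numbers pair the samples. With the block, 4 named genes lost their call: in WT against V PTGES (0.19, adjusted p = 0.0508), NR4A3 (-1.02, adjusted p = 0.0512) and SIK1 (-0.57, adjusted p = 0.0678), and in SD against V NR4A1 (-0.33, adjusted p = 0.0517). The causes were not tested.

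Sign changes occurred only for members that passed in neither setting. HPGD in WT against SA was -0.0012 with every gene of at least 1 count and -7.5e-05 with the replicate block. With 1 library left out, PTGES2 ran from -0.077 to 0.016 in WT against V, -0.034 to 0.072 in SA against V, -0.060 to 0.034 in SD against WT and -0.097 to 0.010 in WT against SA. PTGR1 ran from -0.039 to 0.011 in SD against WT, -0.025 to 0.026 in SD against SA and -0.0033 to 0.043 in WT against SA. PTGES ran from -0.058 to 0.061 in SD against SA. HPGD ran from -0.053 to 0.11 and PTGER4 from -0.26 to 0.0096, both in WT against SA.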
